A study of Drosophila melanogaster with 8 samples.

Results

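The cytosolic ribosomal protein genes are the genes for the protein parts of the ribosomes that translate nuclear mRNAs. They were chosen by symbol alone, as every gene whose symbol starts with RpL, RpS or RpLP followed by a digit, which gave 79 of the 7671 genes in the expression table. Of these, 41 encode large-subunit proteins, 33 small-subunit proteins and 3 proteins of the stalk of the large subunit, and 2 have the suffix -like. RNA was sequenced from intestines dissected out of mated Drosophila melanogaster females, aged 7 days when they were placed on the diets. All flies carried UAS-mCD8::GFP and hsFLP together with tub-GAL4/+, and had FRT82B tub-GAL80 over FRT82B, the transgenes of a clone-labelling system in which GAL4 follows the ubiquitous tubulin promoter. In the GlcNAc group the flies spent 24 h on calorie-restricted food (0.25x diluted) with 0.1 M N-acetyl-D-glucosamine (GlcNAc), a sugar that enters the hexosamine biosynthesis pathway (HBP), and in the control group they had the same diluted food without it. Each group had 4 independent libraries, and the number of flies per library is not given in the sources used here. The comparison asks how intestinal gene expression under calorie restriction differs when GlcNAc is supplied.

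Each ribosomal protein sits in the small subunit, which reads the mRNA, or in the large subunit, which joins amino acids, and nearly all are needed in equal amounts. Cells therefore make their mRNAs at high and closely matched levels, and loss of a single copy of many of these genes gives the Minute phenotype in the fly, with slow growth and thin bristles. Ribosome production follows nutrient supply through insulin and TOR signalling, and much of that control acts on the translation of these mRNAs, which mRNA levels do not record.

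The libraries held between 8839877 and 10326189 reads on the tested genes, and levels are given in CPM, the reads of a gene scaled to the size of its library. All values come from whole intestines, so that fewer cells of a type and less RNA per cell cannot be told apart. All 6 progenitor markers, all 9 enteroendocrine markers and 6 enterocyte markers were in the table, with summed levels of 128.6 to 165 CPM in GlcNAc and 127 to 149.7 CPM in control for progenitors, 323 to 366 CPM in GlcNAc and 274 to 343 CPM in control for enteroendocrine cells, and 38547 to 42583 CPM in GlcNAc and 45217 to 54847 CPM in control for enterocytes. Of the 6 enterocyte markers 5 had a log2 fold change below 0 and 2 passed the limma test, the proteases Jon25Bi (−0.57, limma adjusted p = 0.0301) and Jon99Ciii (−0.9996, limma adjusted p = 0.0108), while the enterocyte transcription factor gene nub had 0.21 (limma adjusted p = 0.203). Most of the enterocyte sum came from alphaTry and Jon65Aiii. Mean levels were 19115 CPM in GlcNAc and 21651 CPM in control for alphaTry, and 19302 and 24204 CPM for Jon65Aiii. Neither passed the test (limma adjusted p = 0.527 and 0.245). Of the 9 enteroendocrine markers 3 were called higher, AstA, Dh31 and CCHa2, and 1 had a log2 fold change below 0, AstC (−0.15). The median of the 9 was 0.33. The marker counts in this paragraph are to be read against 8.75% of all genes called higher and 6.6% called lower. All 7 visceral muscle markers had a log2 fold change below 0 (median −0.24), with summed levels of 588 to 897 CPM in GlcNAc and 710.1 to 1061 CPM in control, and 1 passed the test, Act57B (−0.64, limma adjusted p = 0.00812). Markers of neighbouring tissues varied as well. The Malpighian tubule and fat body lists each had only 1 gene in the table, Alp4 and apolpp. The Malpighian tubule gene Alp4 had 14.6 to 69.3 CPM in GlcNAc and 3.44 to 13.9 CPM in control, with no overlap (log2 fold change 2.37, limma adjusted p = 0.0110). The summed level of the yolk protein genes Yp1 and Yp3, the ovary-list genes in the table, ran from 79.3 to 267 CPM in GlcNAc and from 21.5 to 534 CPM in control, and the fat body gene apolpp ran from 18.4 to 66.7 CPM in GlcNAc and from 2.03 to 117 CPM in control, both highest in control 2. The part of these cell types and tissues in the results below was not tested.

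Ribosomal protein mRNAs were among the most abundant of the intestine. Their mean levels over the 8 libraries ran from 0.966 CPM to 3175 CPM with a median of 1029 CPM, against a median of 26.9 CPM over all tested genes. Of the 100 genes with the highest mean CPM, 28 were ribosomal protein genes, and of the top 500, 57 were. The most abundant of the 79 were the large-subunit genes RpL4 (3175 CPM) and RpL5 (2985 CPM), whose product RpL5 binds 5S rRNA. They were followed by the stalk base RpLP0 (2936 CPM), RpS27A (2789 CPM), made as a fusion with ubiquitin, and RpS2 (2763 CPM). Per kilobase of transcript, which allows levels to be compared between genes, the order was led by RpL41 with 8113 CPM per kb, then RpS27A with 4711, RpL39 with 4612, RpL27A with 3973 and RpL23 with 3963 CPM per kb.

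**Figure D1:**
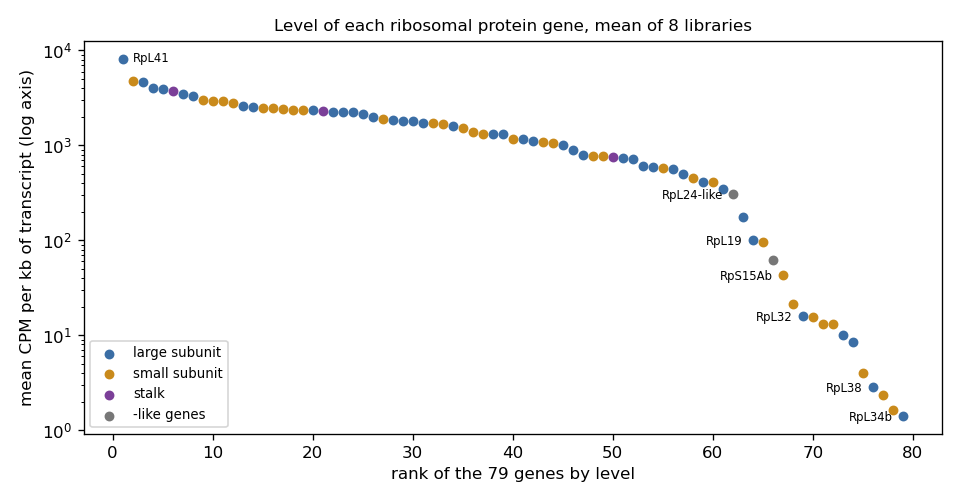
Mean level of each of the 79 genes over the 8 libraries, in CPM per kb of transcript on a log axis, against its rank, coloured by the part of the ribosome. Most genes lie on a shallow slope down from RpL41 at 8113 CPM per kb, and a tail drops below RpL24-like to RpL34b at 1.40 CPM per kb.

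The levels were not uniform. A set of 64 genes lay at 100 CPM or more, with 100.1 to 8113 CPM per kb, and 12 lay under 20 CPM, with 1.40 to 21.4 CPM per kb. Both limits were drawn after the values had been seen. The low set held 5 large-subunit and 7 small-subunit genes, some of them single genes for core proteins. RpL32, a large-subunit gene commonly used as a reference in fly quantitative PCR, had 10.6 CPM, RpS3, whose product lines the mRNA entry channel, had 12.9 CPM, RpS9 had 10.1 CPM, RpL27 had 5.73 CPM and RpL38 had 2.04 CPM. These levels rested on 2 to 177 reads per library, against 860 to 32636 reads for the genes at 100 CPM or more. None of the 12 shares an exon base with another gene on the same strand, while 8 of the 64 do, mostly with small nucleolar RNAs. Exon overlap with a gene on the opposite strand covered over 10% of exonic bases in 3 of the 12 and 4 of the 64, and the counting used strand. The steps between reads and counts that set these low levels were not tested, so they are given as levels in the table and not as levels in the tissue.

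No ribosomal protein gene passed the test between GlcNAc and control, in either direction. With limma and Benjamini-Hochberg adjustment over all genes, 0 of the 79 were called at an adjusted p of 0.05, whereas 15.3% of all genes were (671 or 8.75% higher, and 506 or 6.6% lower). At an unadjusted p of 0.05 in the same fit, 2 of the 79 were higher, RpS15Ab and RpS5b, against 15.2% of all genes. At that level 4 were lower, RpLP1, RpL8, RpL27 and RpL34b, against 12.4% of all genes. With limma's voom on recovered reads, 0 of the 79 were called at an adjusted p of 0.05 as well. In 2 of the 79, the same RpS15Ab and RpS5b, every GlcNAc library lay above every control library (11.2% of all genes), and in 0 every GlcNAc library lay below (9.24% of all genes).

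The differences were small and mostly of a single sign. The log2 fold change, GlcNAc over control, was below 0 for 72 of the 79 genes, or 91.1%, against 47.2% of all genes, with a median of −0.11 and quartiles of −0.15 and −0.06. Over all genes the median was 0.01. The median was −0.12 for the 41 large-subunit genes, of which 40 were below 0, −0.11 for the 33 small-subunit genes, of which 29 were below 0, and −0.13 for the 3 stalk genes, all below 0. The genes share their libraries, so this common sign is not 79 separate observations. With library totals in place of the deposited scaling the count below 0 was 62 of 79, against 37.1% of all genes, and without control 2 it was 64.

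**Figure D2:**
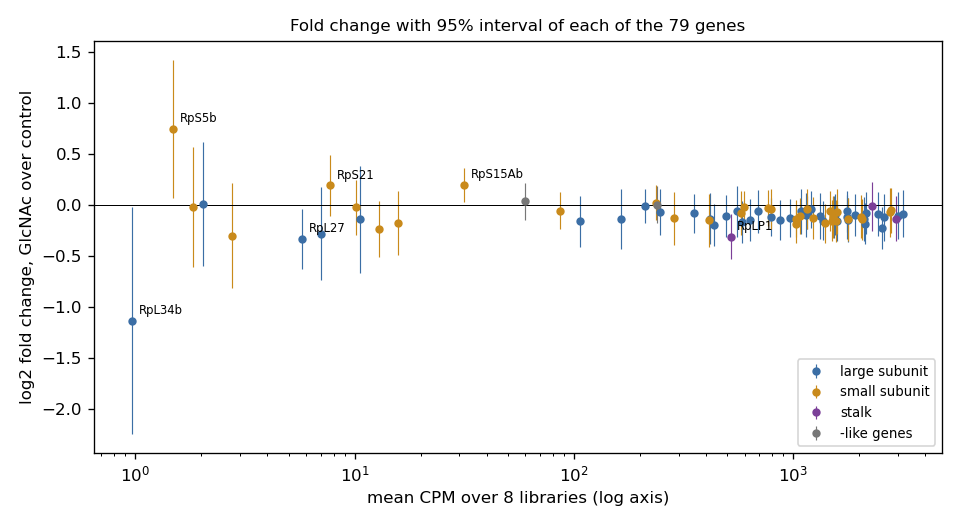
Log2 fold change of each of the 79 genes, GlcNAc over control, with its 95% interval from limma, against the mean CPM on a log axis. Genes at 100 CPM or more form a tight band just below 0, with values from −0.31 to 0.02, and the intervals widen at low levels, with RpS5b at 0.74 and RpL34b at −1.13.

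Among the 64 genes at 100 CPM or more, log2 fold changes ran from −0.31 for RpLP1 to 0.02 for RpS14b, with an SD of 0.0574 and an interquartile range of 0.0738. The 1476 other genes at that level spread far more, with an SD of 0.433 and an interquartile range of 0.359, and 32.0% of them were called. The 95% interval of the difference was within 0.5 of 0 on the log2 scale for 63 of the 64 genes, and its median bounds were −0.32 and 0.11. RpLP1 was the exception, with an interval from −0.53 to −0.09. The spread between libraries of the same group was alike in both sets, with a median residual SD of 0.123 for the ribosomal protein genes and 0.115 for the others.

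The most abundant genes showed the same picture. RpL4 had 3282, 3317, 2833 and 2888 CPM in GlcNAc, against 3226, 3650.0, 2912 and 3294 CPM in control, a log2 fold change of −0.09 (SE 0.104, limma adjusted p = 0.661). RpS27A had 3080.2, 2748, 2545 and 2591 CPM in GlcNAc, against 2738, 3079, 2578 and 2954 CPM in control, a log2 fold change of −0.05 (SE 0.0992, limma adjusted p = 0.801). For both genes GlcNAc 1 lay above control 1, the lowest GlcNAc library lay below every control library, and the groups overlapped over most of their range. RpL5 (log2 fold change −0.10), RpLP0 (−0.13) and RpS2 (−0.07) did not pass the test either, with limma adjusted p of 0.574, 0.443 and 0.729.

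What varied was the whole set from library to library. The mean log2 CPM of the 64 genes at 100 CPM or more was 10.08, 9.96, 9.84 and 9.86 in GlcNAc 1 to 4, against 10.004, 10.18, 9.88 and 10.11 in control 1 to 4. Within the GlcNAc group, GlcNAc 1 was the highest library for 61 of the 64 genes, and GlcNAc 3 the lowest for 47 and GlcNAc 4 for the other 17. Within control, control 2 was the highest for 56 and control 4 for the other 8, and control 3 was the lowest for all 64. As a description, the first principal component over the 8 libraries held 87.5% of the variance of these genes, against 59.4% for the other genes at that level, and the second held 4.39%. The groups overlapped, since GlcNAc 1 lay above control 1 and control 3.

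**Figure D3:**
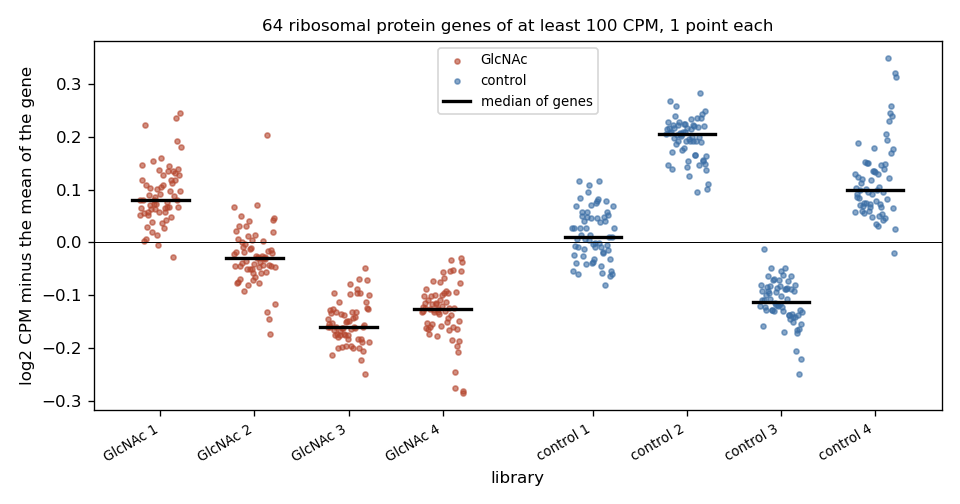
Log2 CPM of each of the 64 genes at 100 CPM or more, minus the mean of that gene over the 8 libraries, with 1 point per gene and the median as a bar, for GlcNAc (left) and control (right). The points of a library move together, with control 2 highest at a median of 0.20 and GlcNAc 3 lowest at −0.16.

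The share of reads taken by the 79 genes, which does not use the deposited scaling, also varied from library to library. It was 9.02%, 8.53%, 7.62% and 7.78% in GlcNAc 1 to 4, against 8.28%, 9.03%, 7.92% and 9.005% in control 1 to 4, each with a 95% Wilson interval narrower than 0.04 percentage points that covers counting error only. The mean was 8.24 ± 0.654% in GlcNAc and 8.56 ± 0.549% in control (SD, n = 4 each), a difference of −0.322 percentage points that is smaller than either SD. With the 10 genes of most reads left out of the total, it was 10.03 ± 0.634% in GlcNAc and 10.8 ± 0.656% in control (SD, n = 4 each), a difference of −0.746 that is larger than either SD, so this comparison depends on the total used. With all genes in the total, the difference was −0.583 without GlcNAc 1 and −0.118 without GlcNAc 3. The balance of the subunits varied little, with a ratio of small-subunit reads to large-subunit and stalk reads of 0.604, 0.589, 0.600 and 0.604 in GlcNAc, against 0.594, 0.593, 0.596 and 0.594 in control. GlcNAc 2 had the lowest ratio of all libraries and the other 3 GlcNAc libraries the highest, so the groups overlapped.

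**Figure D4:**
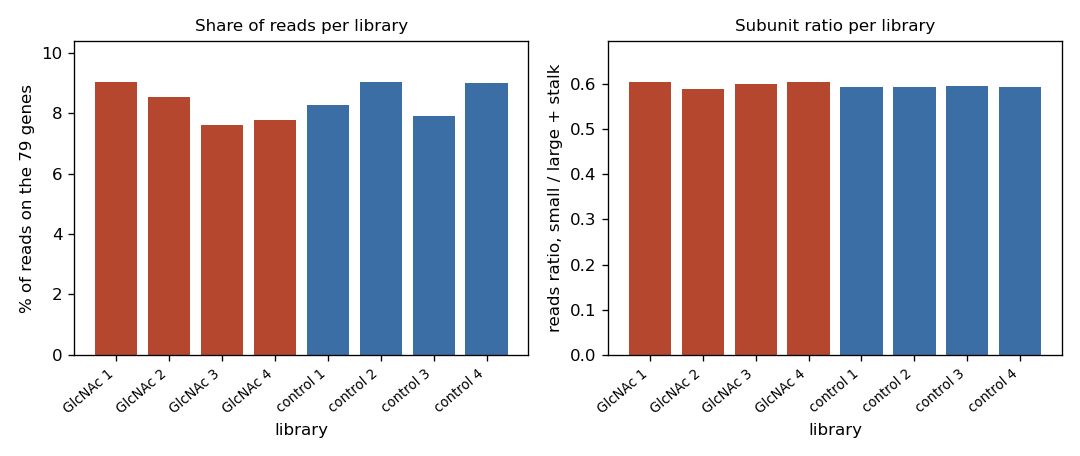
Share of reads on the 79 genes in each library (left panel, percent) and ratio of small-subunit reads to large-subunit and stalk reads (right panel), with the 4 GlcNAc bars left of the 4 control bars. The share ranges from 7.62% to 9.03% with both groups spread over that range, while the ratio stays between 0.589 and 0.604.

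Since the genes moved together, each was also set against the mean of the 64 genes of its own library, a step added after the values had been seen. This removed most of the spread, with a median residual SD of 0.0376, and moved the median log2 fold change of all genes to 0.12. Since the set was centred on its own mean, the balance of signs in it is fixed by that step, and part of the drop in spread follows from it too. Of the 79 genes 0 were called, against 11.7% of all genes, but limma draws its error partly from other genes, and for RpL31 the SE was 0.0681 where its own residual SD was 0.0138. The count of 0 is therefore no measure of how alike the genes were. Every GlcNAc library lay above every control library for 9 of the 79 (12.6% of all genes), and below for 5 (4.07% of all genes), among them RpLP1 and RpL8.

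The stalk is the flexible arm of the large subunit that recruits elongation factors, built from RpLP0 at its base and copies of RpLP1 and RpLP2. RpLP1 (FBgn0002593, arm 2L, 419952 to 420864, plus strand, Release 6 assembly) had 502, 467, 451 and 423 CPM in GlcNAc, against 540.2, 623, 480.4 and 652 CPM in control. GlcNAc 1 lay above control 3, and all other GlcNAc libraries lay below all control libraries. The mean was 461 ± 33.2 CPM in GlcNAc and 574 ± 78.2 CPM in control (SD, n = 4 each), a log2 fold change of −0.31 (SE 0.101) with an adjusted p of 0.0665 by limma, the lowest of the 79 genes. It passed without control 3 (log2 fold change −0.39, limma adjusted p = 0.0216) and with quantile normalization (−0.35, limma adjusted p = 0.0158), and its adjusted p ran from 0.0158 to 0.171 over the 17 alternatives.

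RpLP2, the partner of RpLP1 in the stalk, had 2643, 2316, 2077 and 2039 CPM in GlcNAc, against 2174, 2496, 2072 and 2380.3 CPM in control. Its groups overlapped fully, with GlcNAc 1 the highest of all 8 libraries and GlcNAc 4 the lowest. The log2 fold change was −0.01 (SE 0.108, limma adjusted p = 0.967), and it was 0.04 with library totals. The 64 genes at 100 CPM or more include RpLP1, RpLP2 and RpLP0. Relative to the mean of the 64, the log2 fold change was −0.20 for RpLP1 (95% interval −0.37 to −0.03, limma adjusted p = 0.128). It was 0.10 for RpLP2 (limma adjusted p = 0.449) and −0.02 for RpLP0 (limma adjusted p = 0.869).

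RpL8, a core large-subunit protein, had 2537, 2404, 2184 and 2265 CPM in GlcNAc, against 2658, 3052, 2512 and 2762 CPM in control. GlcNAc 1 lay just above control 3 and the groups overlapped there alone. The log2 fold change was −0.22 (SE 0.0936, limma adjusted p = 0.147), and after RpLP1 it was the other gene of the 64 with a 95% interval entirely below 0. RpL27 lay far lower, with 4.68, 4.75, 5.76 and 5.12 CPM in GlcNAc, against 5.68, 6.88, 6.07 and 6.93 CPM in control, on 45 to 65 reads in a library. The difference on the log2 scale was −0.33 (SE 0.132, limma adjusted p = 0.129), and GlcNAc 3 overlapped control 1.

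**Figure D5:**
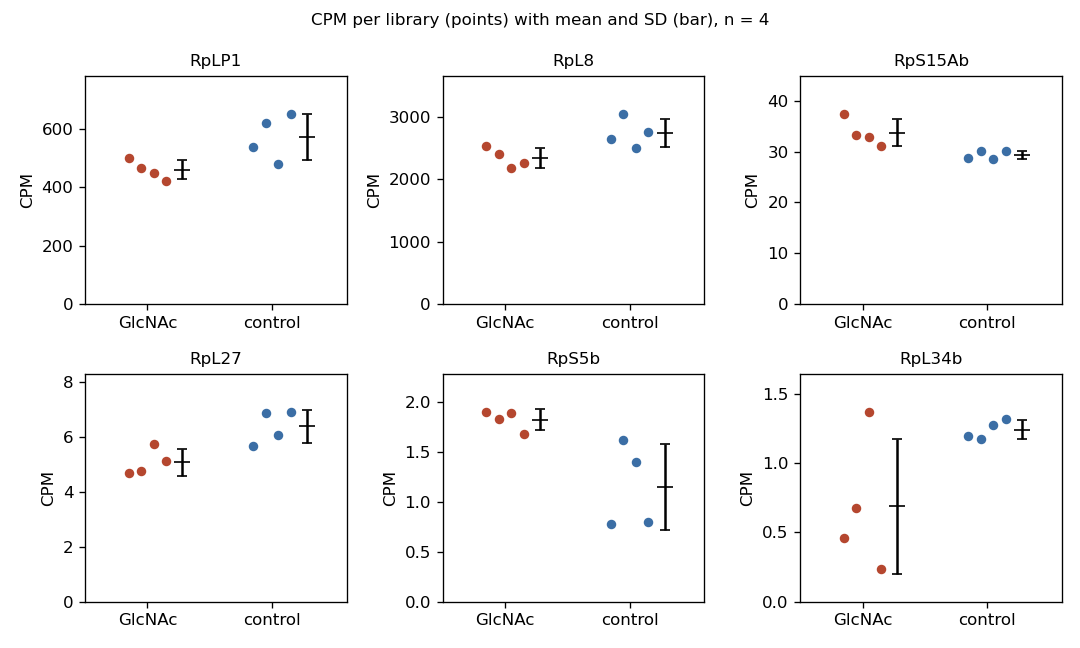
CPM in each library for the 6 genes with the lowest unadjusted p, GlcNAc left of control in each panel, with points for libraries and a bar for the mean and SD (n = 4 each). RpLP1, RpL8, RpL27 and RpL34b average lower in GlcNAc and their groups overlap, and RpS15Ab and RpS5b average higher in GlcNAc with no overlap.

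Paralog pairs encode versions of the same ribosomal protein from separate genes, and in 4 pairs both copies were in the table. The coding length was equal for RpS14a and RpS14b (453 bases) and for RpS15Aa and RpS15Ab (390 bases). It differed between RpS5a and RpS5b (684 and 690 bases) and between RpL34a and RpL34b (486 and 504 bases). Reads of 50 bases from stretches that the copies share cannot be placed on a single copy, and alignments of quality under 10 were left out. The split between copies is therefore that of the counted reads only and is uncertain. How alike the copies are was not measured. RpS15Ab (FBgn0033555, arm 2R) had 37.4, 33.2, 32.9 and 31.1 CPM in GlcNAc, against 28.8, 30.03, 28.5 and 30.1 CPM in control. All 4 GlcNAc libraries lay above all control libraries, with a log2 fold change of 0.19 (SE 0.0734, limma adjusted p = 0.110). RpS15Aa (FBgn0010198, arm X) had 11.6, 13.2, 18.0 and 17.0 CPM in GlcNAc, against 15.7, 17.4, 15.8 and 17.6 CPM in control, and a log2 fold change of −0.17 (SE 0.140, limma adjusted p = 0.478). GlcNAc 1 and 2 were the lowest of the 8 libraries for RpS15Aa, and those 2 libraries were the highest for RpS15Ab. The Ab copy took 69.4 ± 5.73% of the reads of the pair in GlcNAc and 63.9 ± 0.806% in control (SD, n = 4 each), from 396 to 502 reads per library.

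RpS5b, a copy known for its expression in the female germline, was at the floor of the table, with 1.90, 1.83, 1.89 and 1.67 CPM in GlcNAc, against 0.781, 1.62, 1.39 and 0.794 CPM in control. These are 17 to 18 reads per GlcNAc library and 7 to 14 per control library. All GlcNAc libraries lay above all control libraries, with a log2 fold change of 0.74 (SE 0.305, limma adjusted p = 0.141). RpS5a, the ubiquitous copy, had 1073, 994, 929 and 930 CPM in GlcNAc, against 1086, 1179, 966 and 1079 CPM in control, a log2 fold change of −0.13 (SE 0.0828, limma adjusted p = 0.340), and the groups overlapped. RpS5b took 0.181 ± 0.0113% of the reads of the pair in GlcNAc and 0.102 ± 0.0391% in control (SD, n = 4 each).

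RpL34b was the gene with the largest residual SD, with 0.463, 0.678, 1.38 and 0.239 CPM in GlcNAc, against 1.198, 1.17, 1.28 and 1.32 CPM in control. The values rest on 2 to 13 reads per library. GlcNAc 3 lay above all 4 control libraries and the other 3 GlcNAc libraries lay below them. The log2 fold change was −1.13 (SE 0.499, limma adjusted p = 0.173). Without GlcNAc 3 it was −1.56 (limma adjusted p = 0.0492), and over 16 alternatives it ran from −1.56 to −0.29, with adjusted p from 0.0492 to 0.338. Its partner RpL34a had 225, 217, 192 and 205 CPM in GlcNAc, against 212, 231, 189 and 214 CPM in control, a log2 fold change of −0.01 (SE 0.0758, limma adjusted p = 0.957).

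RpS14a and RpS14b lie next to each other on the plus strand of arm X, at 7933742 to 7934677 and at 7934898 to 7935792 in the Release 6 assembly. RpS14a had 644, 581, 566 and 572 CPM in GlcNAc, against 586, 634, 559 and 613 CPM in control, and RpS14b had 258, 243, 224 and 227 CPM in GlcNAc, against 226, 264, 216 and 233 CPM in control. Both overlapped between groups, with log2 fold changes of −0.02 (SE 0.0688) and 0.02 (SE 0.0759) and limma adjusted p of 0.910 and 0.897. The b copy took 28.7 ± 0.518% of the reads of the pair in GlcNAc and 28.2 ± 0.845% in control (SD, n = 4 each), so the split between these neighbours hardly varied.

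The -like genes encode relatives of ribosomal proteins that act in ribosome assembly in yeast, where the counterpart of RpL24-like is Rlp24 and that of RpLP0-like is Mrt4. RpL24-like had 263, 242, 219 and 234 CPM in GlcNAc, against 230.0, 265, 213 and 249.8 CPM in control, a log2 fold change of 0.00 (SE 0.0821, limma adjusted p = 0.991). RpLP0-like had 65.0, 58.3, 58.6 and 58.9 CPM in GlcNAc, against 65.6, 62.2, 54.3 and 53.4 CPM in control, a log2 fold change of 0.04 (SE 0.0805, limma adjusted p = 0.83). Both overlapped between groups. RpL24-like is itself among the 64 genes at 100 CPM or more. Against the mean of those 64 genes in each library, RpL24-like was higher in all 4 GlcNAc libraries than in all control libraries. The difference was 0.11 on the log2 scale (95% interval −0.05 to 0.27, limma adjusted p = 0.400).

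The genes that varied least within groups were RpL15, RpS14a and RpS15Ab, and those that varied most were RpL34b, RpL32 and RpS5b. RpL15, a large-subunit gene, had 1185, 1134, 1079 and 1102 CPM in GlcNAc, against 1148, 1261, 1106 and 1237 CPM in control, a log2 fold change of −0.08 (SE 0.0723, limma adjusted p = 0.552). RpL32 had 13.8, 9.65, 8.31 and 8.09 CPM in GlcNAc, against 9.22, 10.7, 8.08 and 16.6 CPM in control, a log2 fold change of −0.14 (SE 0.236, limma adjusted p = 0.766). Both overlapped, and GlcNAc 1 and control 4 stood well above the other RpL32 libraries. RpS21, the third largest positive change, had 9.10, 7.35, 8.51 and 7.89 CPM in GlcNAc, against 7.86, 6.54, 6.18 and 8.31 CPM in control, a log2 fold change of 0.19 (SE 0.133, limma adjusted p = 0.407) with overlapping groups.

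Other genes of ribosome production were counted from lists written by symbol. Their counts are to be read against the 8.75% of all genes called higher and the 6.6% called lower. Of 5 genes of RNA polymerase I and rDNA transcription, 0 passed the limma test (median log2 fold change 0.01). Of 39 ribosome biogenesis factors 2 rose and 0 fell (median 0.03), and these were eIF6, needed to make free large subunits (log2 fold change 0.20, limma adjusted p = 0.0471), and the small-subunit maturation kinase RIOK1 (0.29, limma adjusted p = 0.0413). Of 34 genes listed under translation initiation and elongation factors 2 rose and 0 fell (median −0.04). These were eIF-2beta, a subunit of the factor that delivers the initiator tRNA (0.71, limma adjusted p = 0.000432), and eIF3-S8 (0.33, limma adjusted p = 0.0405). The level of eIF3-S8 was low, with means of 16.3 CPM in GlcNAc and 12.9 CPM in control, against 623 and 618 CPM for eIF3-S9. The list also held genes that are not such factors, among them sta, Rack1, bic and the release factor gene eRF1. Of these, sta encodes a small-subunit ribosomal protein that the symbol rule does not match. Its means were 2690 CPM in GlcNAc and 3034 CPM in control (log2 fold change −0.17, limma adjusted p = 0.310). Of 68 mitochondrial ribosomal protein genes, whose products form a separate ribosome, 1 rose, mRpS6 (0.39, limma adjusted p = 0.0344), and 4 fell, from mRpL9 (−0.35, limma adjusted p = 0.0401) through mRpL4 and mRpL15 to mRpL45 (−0.23, limma adjusted p = 0.0345), with a median of −0.10.

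Regulators that tie ribosome production to nutrients were listed too. Of 24 such genes 3 rose and 3 fell (median 0.08), where 15.3% of all genes were called in either direction. Thor, the 4E-BP that restrains cap-dependent translation, had 831, 601, 631 and 619 CPM in GlcNAc, against 367, 365, 244 and 324 CPM in control, a log2 fold change of 1.05 (limma adjusted p = 0.00101) with no overlap. Xrp1, a transcription factor induced in cells lacking a ribosomal protein gene copy, rose by 0.54 (limma adjusted p = 0.00248), and REPTOR, a transcription factor active when TORC1 is low, rose by 0.42 (limma adjusted p = 0.00546). The TORC1 activator Rheb (log2 fold change −0.24, limma adjusted p = 0.0247), the growth-gene transcription factor Dref (−0.36, limma adjusted p = 0.0158) and foxo, the transcription factor held back by insulin signalling (−0.33, limma adjusted p = 0.0328), fell. These values stand beside the absence of calls among the 79 genes as separate measurements, and a relation between them was not tested.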

How the data were processed

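Intestinal RNA was extracted with an RNeasy kit, made into stranded mRNA libraries and sequenced as single-end reads of 50 bases. The authors trimmed reads with Trimmomatic, mapped them with TopHat2 2.1.0 to a FlyBase genome and counted reads on exons by strand with HTSeq, leaving out alignments of quality under 10. They kept genes above 1 CPM in at least 3 of 4 replicates of a condition and deposited log2 CPM for 7671 genes in 8 libraries, scaled between libraries. The deposited table also holds fold changes on the log2 scale, test statistics (scores) and p-values of the authors' own comparison, none of which were used.

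Sample labels gave the groups. The labels name the source whole larvae and the agent glucosamine, while tissue, sex and protocol give adult intestine and GlcNAc, which were followed. Libraries of a group were distinct.

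GlcNAc was compared with control by limma 3.58.1 (R 4.3.3) on log2 CPM, using lmFit and eBayes(trend = TRUE) and no term but condition, over all 7671 genes with Benjamini-Hochberg adjustment and a threshold of 0.05. Fold changes carry the deposited offset of 0.5 read. Reads were recovered from the steps between low values, and 100% of 61368 values came out whole within 0.05 read. CPM is 2 to the power of the deposited value. Levels per kb use the median transcript length of the Ensembl annotation of the same assembly, in which 74 members were found by gene ID and 5 by symbol. Of 92 protein-coding genes whose current symbol fits the rule, 13 were not analysed here. RpL37a and RpL37A are different genes.

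Genes named with values per library are the 5 most abundant, the stalk genes, paralog pairs, -like genes, and the 3 with the largest and smallest residual SD and the 3 with the largest change in each direction. RpL8 and the low-level genes were chosen after their values were seen. Members and lists were chosen with earlier results of these data known. Alternatives were library totals, quantile normalization, median centring, a minimum of 10 CPM, pseudocounts of 0.1 and 2 CPM, voom weights, no trend, a replicate block, shorter gene lists, and each library left out in turn.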

Additional observations from a re-analysis of the deposited data

Results flagged for a closer look

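RpLP0-like stood apart in a single library. GlcNAc 1 had 65.0 CPM, while the other 3 GlcNAc libraries lay between 58.3 and 58.9 CPM, so the gap to the nearest of them was 0.905 of the range of the group. It was the only one of 48 groups of 4 values examined in this way, and chance alone marks about 1 in 20 groups. Without GlcNAc 1, the RpLP0-like log2 fold change was −0.0013 in place of 0.036.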

How the results depend on the processing

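The number of ribosomal protein genes called higher was 0 under every alternative run. The number called lower was 2 with quantile normalization, RpLP1 and RpL36A (log2 fold change −0.27, limma adjusted p = 0.0366, range over alternatives 0.0366 to 0.392), and 0 to 1 with each library left out, RpL34b without GlcNAc 3 and RpLP1 without control 3. It was 0 under all other alternatives. The median log2 fold change was −0.06 with library totals and −0.17 to −0.06 with each library left out, lowest without control 3 and highest without control 2. The difference in share of reads was −0.746 percentage points without the 10 genes with the most reads, and −0.583 to −0.118 with each library left out.

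Signs near 0 turned. With library totals the log2 fold change was 0.0035 for RpS27A, 0.042 for RpLP2, 0.036 for RpS14a and 0.044 for RpL34a. It was 0.011 for RpL34a with quantile normalization and −0.018 for RpL24-like with median centring. With each library left out it ran from −0.052 to 0.052 for RpL24-like, −0.063 to 0.034 for RpL34a, −0.087 to 0.037 for RpLP2, −0.059 to 0.012 for RpS14a, −0.017 to 0.080 for RpS14b, −0.0094 to 0.089 for RpLP0-like and −0.31 to 0.071 for RpL32. None of these reached the threshold, and the cause was not tested.

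Whether the replicate numbers pair the libraries was not settled. The labels say that the groups were sampled alongside each other but not that a number marks a shared batch. Same-numbered libraries had correlations of their deviations over all genes of 0.21, 0.40, 0.15 and −0.06, so not every pair was above 0.1, and the comparison was left without the pairing. With the number as a replicate block, 0 ribosomal protein genes were called in either direction and 1324 of all genes were called, against 1177 without it. Over all alternatives that count ran from 852, without GlcNAc 4, to 1324. With 4 libraries a group, the median 95% interval of the ribosomal protein genes at 100 CPM or more spanned −0.32 to 0.11. Genes under 20 CPM, with a median residual SD of 0.324, bound the difference less tightly.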
